A study of Homo sapiens with 3 samples.

Results

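The 7 genes described here are the cytochrome P450 genes CYP1B1 and CYP1A1, the aryl hydrocarbon receptor gene AHR, the receptor's repressor AHRR, its target TIPARP, and the partner genes ARNT and ARNT2. The list was chosen by symbol with these FPKM values known, for the high CYP1B1 value and the low ARNT2 value of NANOG cells, and all 7 were found among the 23277 gene symbols measured. RNA sequencing was done on total RNA of CaSki, an established epidermoid cervical carcinoma line, in 3 groups of 1 library each. The first group carried FLAG-tagged NANOG in a pMSCV retroviral vector and was given an siRNA against HDAC1 (siHDAC1). The second carried the same NANOG vector and was given an siRNA against GFP (siGFP), a protein these cells do not make on their own. The third, the control, carried the pMSCV empty vector and was given siGFP, so that every group had a vector and an siRNA. Whether the NANOG cells were a pool or a clone is not given in the sources used here. A group with empty vector and HDAC1 siRNA was not analysed here, so the siRNA has a value with NANOG but not without it. Since every group is 1 library, the differences are descriptions of these libraries and carry no test, error or interval.

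The aryl hydrocarbon receptor is a ligand-activated transcription factor of the bHLH-PAS family. It waits in the cytosol with HSP90 and the cochaperone p23 (PTGES3), and binds planar aromatic compounds, tryptophan metabolites and other ligands. With a ligand it enters the nucleus, pairs with ARNT and binds xenobiotic response elements, whose core reads GCGTG. Its best known targets are the CYP1 enzymes, which oxidise polycyclic hydrocarbons and estrogens, and feedback genes. AHRR competes with the receptor for ARNT, and TIPARP is a mono-ADP-ribosyltransferase that limits receptor activity. ARNT also pairs with the hypoxia-inducible factors, and ARNT2 is its close relative, best known from the nervous system.

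The set of promoter sequences used here, from RefSeq's GRCh38.p14 annotation, held 5 of the 7 genes, as 8 start sites in all. It held no entry for CYP1B1 or ARNT2, so the promoters of these genes were not examined. The FPKM values were made on hg19, so the coordinates below belong to the sequences and not to the values. The 3 sequences shown are the 250 bases before the most upstream listed start of the known receptor targets CYP1A1, AHRR and TIPARP, since AHRR and TIPARP did not share the CYP1B1 difference described next and CYP1A1 was too low to tell. They read 5′ to 3′ on the gene's strand, with each GCGTG core, or CACGC where the core lies on the other strand, in capitals.
CYP1A1 (chr15:74725529-74725778, minus strand): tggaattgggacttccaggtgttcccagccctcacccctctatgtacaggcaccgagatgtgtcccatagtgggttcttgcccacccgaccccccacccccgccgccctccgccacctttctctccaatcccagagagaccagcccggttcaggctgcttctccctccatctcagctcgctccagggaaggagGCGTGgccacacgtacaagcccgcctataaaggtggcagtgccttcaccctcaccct
AHRR (chr5:321464-321713, plus strand): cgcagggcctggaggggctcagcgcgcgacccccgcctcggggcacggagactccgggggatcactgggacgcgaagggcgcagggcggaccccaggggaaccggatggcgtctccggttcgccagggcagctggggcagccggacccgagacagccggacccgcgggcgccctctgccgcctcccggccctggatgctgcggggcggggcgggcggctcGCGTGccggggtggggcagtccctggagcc
TIPARP (chr3:156674340-156674589, plus strand): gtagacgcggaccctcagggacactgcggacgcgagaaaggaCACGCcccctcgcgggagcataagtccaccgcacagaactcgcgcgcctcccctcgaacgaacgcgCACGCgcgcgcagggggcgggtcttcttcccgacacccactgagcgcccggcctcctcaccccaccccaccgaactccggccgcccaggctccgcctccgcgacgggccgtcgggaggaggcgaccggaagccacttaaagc
CYP1A1 holds 1 core, 57 bases before the start, and AHRR holds 1 core, 30 bases before the start. TIPARP holds 2 cores, at 208 and 142 bases before the start. Of 35116 RefSeq promoters, 32.2% hold at least 1 such core in the same window and 10.2% at least 2, so a core here is common. A second AHRR start has 2 cores, while the other TIPARP starts and the starts of AHR and ARNT have 0 in this window. The hypoxia response core ACGTG was also searched on both strands. It occurs once in the CYP1A1 window and in the AHR window as overlapping matches on both strands, which form 1 palindrome, against 18.5% of all promoters with a match. A match describes letters and is neither a binding site nor a cause.

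CYP1B1 was several-fold higher in both NANOG libraries than in the control, and CYP1A1 was hardly detected in any. CYP1B1 encodes a mainly extrahepatic enzyme that hydroxylates estradiol, among other substrates. It was at 11.2 FPKM (fragments scaled to transcript length and to library size) with NANOG and HDAC1 siRNA, at 17.8 FPKM with NANOG and GFP siRNA, and at 3.09 FPKM with empty vector. The NANOG GFP siRNA library was therefore highest and the HDAC1 siRNA library lay between it and the control. The FPKM ratio was 5.75 for NANOG with GFP siRNA over empty vector and 3.60 for NANOG with HDAC1 siRNA over empty vector. Differences below are of log2(FPKM + 1), a scale that compresses the differences of weakly expressed genes, with the first-named library minus the second. There CYP1B1 differed by 2.20 for NANOG against empty vector and ranked 11th from the top of the 11398 genes kept for comparison, those averaging at least 1 FPKM. Between the NANOG libraries the difference was -0.63 for HDAC1 siRNA against GFP siRNA, and 1.57% of genes had one as large in either direction. It came to -0.47 after rescaling to TPM, which gives all libraries the same sum and under which the median gene of this comparison shifted to 0.18, against 0.01 as deposited. Of the genes kept, 47.9% had a level below that of CYP1B1 with HDAC1 siRNA, 61.7% with NANOG and GFP siRNA, and 16.3% with empty vector. CYP1B1 was thus among the weaker genes of the control and near the middle or above it in the NANOG libraries.

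CYP1A1, the most inducible enzyme of the family, was at 0.0139 FPKM with NANOG and GFP siRNA and was listed at 0 with NANOG and HDAC1 siRNA and with empty vector. No fold is given, and at this level a difference was not detectable. Its neighbour CYP1A2, the third enzyme of the family and best known from liver, was at 0.0229 FPKM with HDAC1 siRNA, 0.0344 FPKM with NANOG and GFP siRNA and 0.0351 FPKM with empty vector. These values stand in the whole-number ratio 2 to 3 to 3, within 1%, once the relative depth of the libraries is taken out, as values resting on a handful of fragments do. CYP1B1-AS1, named after its values were seen, was low but followed the order of CYP1B1. It was at 0.171 FPKM with HDAC1 siRNA, 0.256 FPKM with NANOG and GFP siRNA and 0.0434 FPKM with empty vector, in the ratio 4 to 6 to 1. Like those of CYP1A2, these values may rest on a handful of fragments, so the order of CYP1B1-AS1 is uncertain. RefSeq's current annotation has no gene overlapping CYP1B1. Whether the authors counted by strand is not given in the sources used here, so fragments from the opposite strands of this region may not have been told apart.

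**Figure D1:**
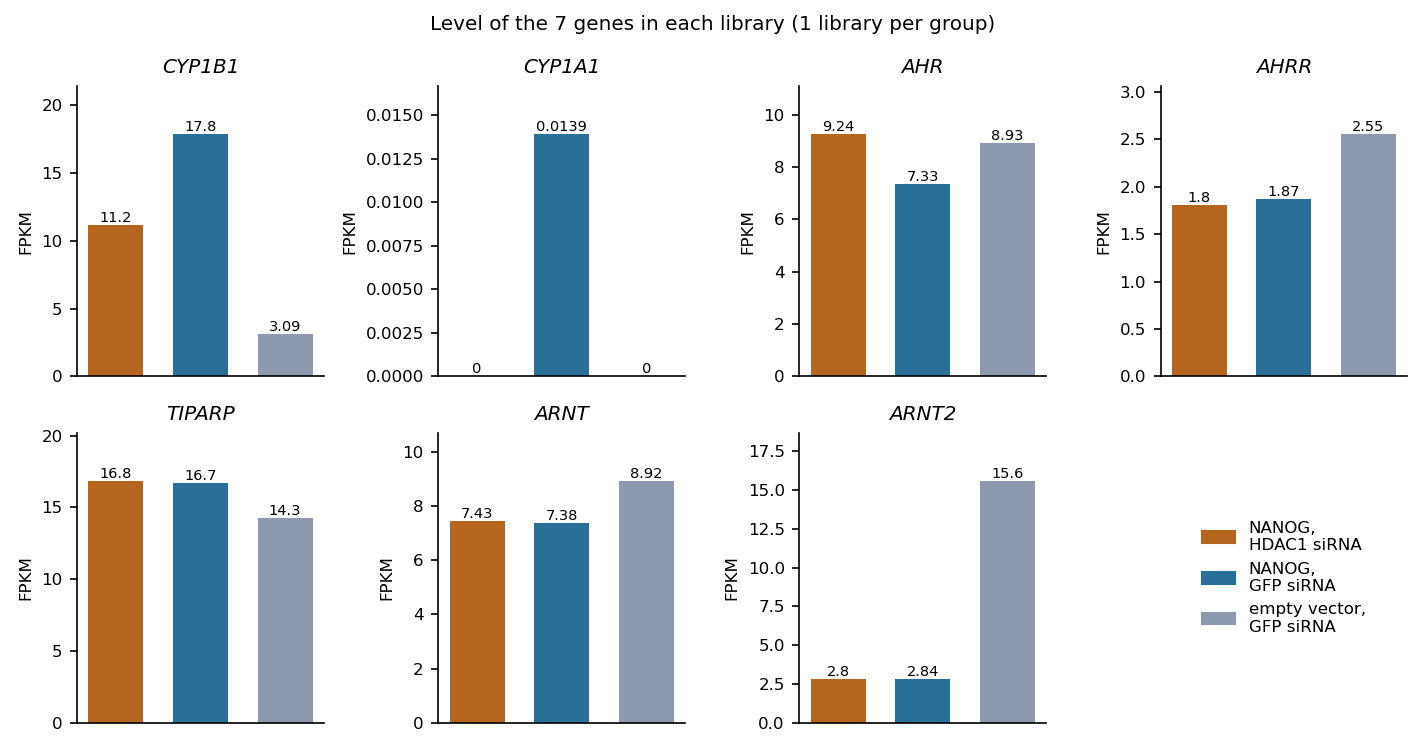
FPKM of each of the 7 genes in the 3 libraries (bars start at 0, 1 library per bar, each panel with its own axis). CYP1B1 is highest with NANOG and GFP siRNA (17.8 FPKM), ARNT2 is highest with empty vector (15.6 FPKM), and the CYP1A1 axis ends below 0.02 FPKM.

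The receptor and its repressor differed far less than CYP1B1. AHR itself was at 9.24 FPKM with NANOG and HDAC1 siRNA, 7.33 FPKM with NANOG and GFP siRNA and 8.93 FPKM with empty vector. AHR was thus lowest in the library where CYP1B1 was highest. Its log2(FPKM + 1) differed by -0.25 between NANOG and empty vector, both with GFP siRNA. Between HDAC1 siRNA and GFP siRNA in NANOG cells it differed by 0.30. Differences at least as large, in either direction, were seen for 39.0% of genes in the first comparison and for 13.5% in the second. The ratio of the CYP1B1 level to the AHR level was 1.21 with HDAC1 siRNA, 2.43 with NANOG and GFP siRNA and 0.347 with empty vector.

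AHRR was low throughout, at 1.80 FPKM with HDAC1 siRNA, 1.87 FPKM with NANOG and GFP siRNA and 2.55 FPKM with empty vector. The control library was highest, with a difference of -0.31 for NANOG against empty vector, where 30.5% of genes differed as much in either direction. RefSeq also lists PDCD6-AHRR, a read-through transcript of AHRR and its neighbour PDCD6, and this transcript has no symbol of its own among those measured. PDCD6, named for this reason, was at 211 FPKM with HDAC1 siRNA, 191 FPKM with NANOG and GFP siRNA and 250 FPKM with empty vector. PDCD6 was also highest in the control, and its part in the AHRR values was not tested.

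TIPARP differed little between the libraries and was the most abundant of the 7 genes in the HDAC1 siRNA library. It was at 16.8 FPKM with HDAC1 siRNA, 16.7 FPKM with NANOG and GFP siRNA and 14.3 FPKM with empty vector. The NANOG libraries were nearly level and slightly above the control, with a difference of 0.21 for NANOG against empty vector, where 46.8% of genes differed as much in either direction. TIPARP-AS1, which overlaps TIPARP in RefSeq's annotation, was at 0.0856 FPKM with HDAC1 siRNA, 0.143 FPKM with NANOG and GFP siRNA and 0.131 FPKM with empty vector. All of these are far below the TIPARP level.

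ARNT2 was about as low in both NANOG libraries and several-fold higher in the control, while ARNT differed little. ARNT, the general partner of the receptor, was at 7.43 FPKM with HDAC1 siRNA, 7.38 FPKM with NANOG and GFP siRNA and 8.92 FPKM with empty vector. ARNT2 was at 2.80 FPKM with HDAC1 siRNA, 2.84 FPKM with NANOG and GFP siRNA and 15.6 FPKM with empty vector. The control level of ARNT2 was 5.49 times the NANOG GFP siRNA level and 5.56 times the HDAC1 siRNA level. ARNT2 differed by -2.11 for NANOG against empty vector and by -2.12 for NANOG with HDAC1 siRNA against empty vector, where it ranked 12th and 5th from the bottom of the 11398 genes. These comparisons share the empty vector library, so their likeness is no second observation. Between the NANOG libraries ARNT2 differed by -0.01 and ARNT by 0.01, so the ARNT2 level with HDAC1 siRNA stayed far below that of the control. CYP1B1, by contrast, was lower with HDAC1 siRNA than with GFP siRNA in NANOG cells, with 1 library each.

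Together the partner genes were at 10.2 FPKM in each NANOG library and at 24.5 FPKM with empty vector. ARNT2 made up 27.4% of that sum with HDAC1 siRNA, 27.8% with NANOG and GFP siRNA and 63.6% with empty vector. ARNT2 was thus the more abundant partner in the control and ARNT in both NANOG libraries. The summed partner level was 1.11 times the AHR level with HDAC1 siRNA, 1.39 times with NANOG and GFP siRNA and 2.74 times with empty vector. In bulk RNA, fewer cells with a transcript and less of it per cell cannot be told apart.

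Of the 7 genes, 6 averaged 1 FPKM or more over the libraries and entered the counts, and CYP1A1 did not. With NANOG against empty vector, 1 of 6 was at least 2-fold higher (CYP1B1), where 0.676% of all genes were, and 1 of 6 was at least 2-fold lower (ARNT2), where 1.2% of all genes were. Both genes were listed because of this comparison, so nothing is read from these shares. The median difference of the 6 genes was -0.25, against -0.01 for all genes. With HDAC1 siRNA against GFP siRNA in NANOG cells, 0 of 6 were at least 2-fold higher, against 0.0877% of all genes, and 0 of 6 were at least 2-fold lower, against 0.211%. At 1.5-fold, CYP1B1 alone of the 6 was lower in that comparison, against 1.43% of all genes, and 0 were higher, against 0.676%. This call ends under TPM, where CYP1B1 differed by -0.47 and the median gene by 0.18. CYP1B1 differed by -0.66 when rescaled to the same upper quartile and by -0.64 when rescaled to a median log2 ratio of 0. The median difference was 0.00 for the 6 genes and 0.01 for all genes. In the comparison of NANOG and HDAC1 siRNA against empty vector, both NANOG and the siRNA differ. There CYP1B1 was the 1 member at least 2-fold higher (1.57, background 0.368%). ARNT2 was the 1 member at least 2-fold lower (background 0.807%). The empty vector library is the same as in the first comparison, for which both genes were listed. These calls are therefore no second observation, and nothing is read from the shares.

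**Figure D2:**
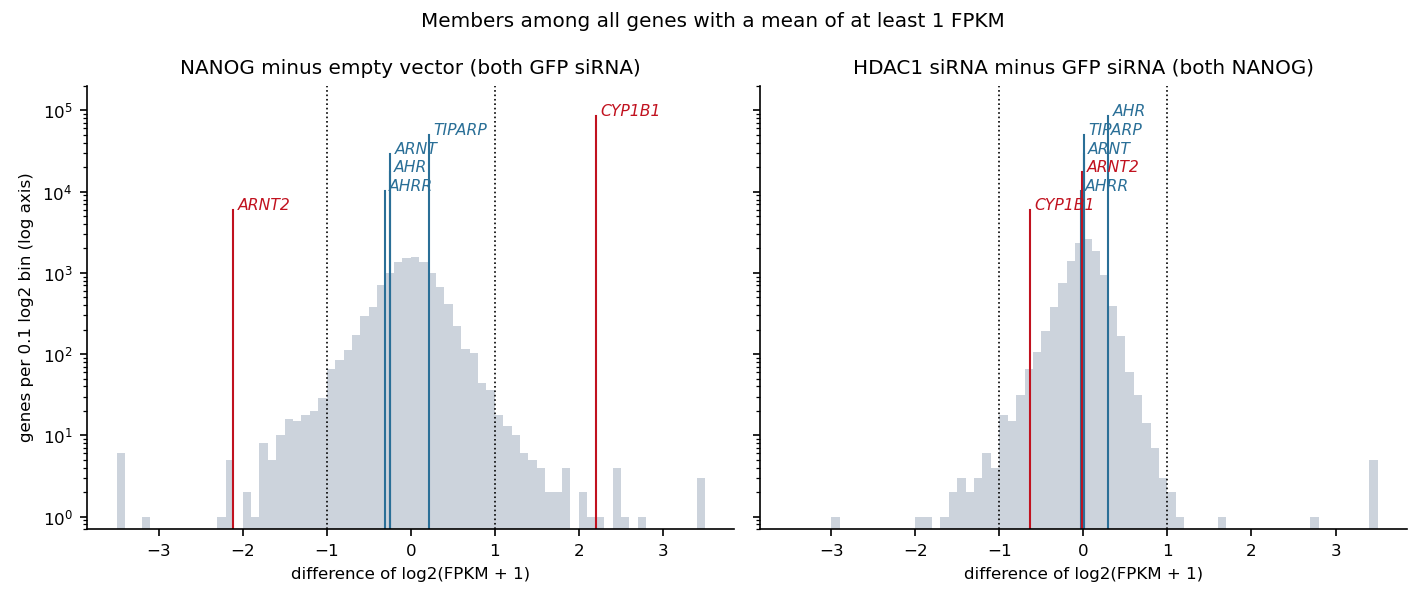
Histogram of the difference of log2(FPKM + 1) over the 11398 genes averaging 1 FPKM or more (values beyond 3.5 are drawn at 3.5; log count axis), with the 6 members that passed this limit marked by lines whose height has no meaning and dotted lines at 2-fold. For NANOG against empty vector, CYP1B1 (2.20) and ARNT2 (-2.11) lie in the tails, and for HDAC1 siRNA against GFP siRNA all 6 lie between the dotted lines.

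Other genes of the pathway were taken from 7 lists. These were receptor chaperones, coactivators, other targets, bHLH-PAS relatives, ligand supply and breakdown, P450 partners and TIPARP relatives. Over the lists, 60 genes averaged 1 FPKM or more. Of these 60, 4 passed 2-fold on the higher side with NANOG against empty vector and 0 on the lower side, and the median difference was -0.08, against -0.01 for all genes. The 4 are 6.67% of the 60, where 0.676% of all genes passed on that side. The lists were chosen with earlier results of these data known, so nothing is read from this share. With HDAC1 siRNA against GFP siRNA in NANOG cells, 0 were at least 2-fold higher or lower on the log2(FPKM + 1) scale. The median was 0.02, against 0.01 for all genes. The 4 higher genes were NQO1, HES1, UGT1A6 and EPHX1. Since the median over all genes lay near 0 in both comparisons, about as many of all genes were higher as lower. The counts by direction and the list medians below are to be read beside that.

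Among target genes other than the members, 9 of 16 were measured at this level, and 3 of the 9 were at least 2-fold higher with NANOG. NQO1, a quinone reductase that is also a textbook target of NRF2, was at 394 FPKM with HDAC1 siRNA, 639 FPKM with NANOG and GFP siRNA and 205 FPKM with empty vector. It differed by 1.63 for NANOG against empty vector and by -0.70 between HDAC1 siRNA and GFP siRNA in NANOG cells, in the same order over the libraries as CYP1B1. HES1, better known as a target of Notch signalling, was at 16.1 FPKM with HDAC1 siRNA, 23.9 FPKM with NANOG and GFP siRNA and 8.26 FPKM with empty vector. UGT1A6, a glucuronosyltransferase, was at 7.44 FPKM with HDAC1 siRNA, 8.57 FPKM with NANOG and GFP siRNA and 3.39 FPKM with empty vector. Its gene shares 3′ exons with the other UGT1A genes, so the split between them is uncertain. SLC7A5, the large neutral amino acid transporter, was highest in the control instead, at 454 FPKM with HDAC1 siRNA, 429 FPKM with NANOG and GFP siRNA and 750 FPKM with empty vector. The list's median was 0.13 for NANOG against empty vector. It was 0.08 between HDAC1 siRNA and GFP siRNA. ALDH3A1, a classical receptor target left out for its low mean, was at 0.947 FPKM with HDAC1 siRNA, 1.05 FPKM with NANOG and GFP siRNA and 0.643 FPKM with empty vector.

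The HSP90 genes, whose products hold the receptor, were abundant. HSP90AB1 was at 691 FPKM with HDAC1 siRNA, 958 FPKM with NANOG and GFP siRNA and 623 FPKM with empty vector. HSP90AA1 had the same order, at 957 FPKM with HDAC1 siRNA, 1249 FPKM with NANOG and GFP siRNA and 860 FPKM with empty vector. The nuclear export receptor gene XPO1 differed by -0.05 for NANOG against empty vector. For NANOG against empty vector 3 of 6 chaperone and export genes were higher and 3 lower, none by 2-fold, with a median of 0.05. Of the coactivators and partner factors 7 of 8 were lower with NANOG (median -0.27; 6 of 8 when the libraries were rescaled to a median ratio of 0 or to the same upper quartile), with the histone acetyltransferases EP300 at a difference of -0.54 and CREBBP at -0.40, and NCOA2 at -0.36. RELB, an NF-kB subunit that can pair with the receptor, had the largest difference of the list for HDAC1 siRNA against GFP siRNA (0.44), at 41.1 FPKM with HDAC1 siRNA and 30.0 FPKM with GFP siRNA.

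Of the relatives of AHR and ARNT, 8 of 12 measured genes were lower with NANOG and 4 were higher, none by 2-fold. The list's median was -0.30, against -0.01 for all genes. NCOA1, NCOA2 and NCOA3, 3 of the 12, are also among the coactivators. EPAS1, which encodes HIF-2 alpha and pairs with ARNT, was at 25.0 FPKM with HDAC1 siRNA, 24.7 FPKM with NANOG and GFP siRNA and 42.8 FPKM with empty vector. Its difference of -0.77 for NANOG against empty vector and 0.02 between the NANOG libraries had the shape of the ARNT2 values at a smaller size. The clock partner ARNTL, which encodes BMAL1, differed by -0.48 for NANOG against empty vector, and the period genes PER3 and PER1 by 0.52 and 0.42. For HDAC1 siRNA against GFP siRNA the list's median was 0.10.

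Genes that make, carry or break down tryptophan-derived ligands had 6 of 8 members lower with NANOG (5 of 8 at the same upper quartile) and a median of -0.16. Since the list mixes these roles, the count gives no direction of ligand supply. KYNU, which encodes kynureninase, was the abundant enzyme of the list, at 180 FPKM with HDAC1 siRNA, 149 FPKM with NANOG and GFP siRNA and 184 FPKM with empty vector. AADAT, a kynurenine aminotransferase, differed by 0.47 for NANOG against empty vector, and IL4I1, an amino acid oxidase, by 0.24. IDO1 and TDO2, which open the kynurenine route, stayed under 0.5 FPKM in every library, and IDO2 was listed at 0 in all 3.

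Of the P450 partners and estrogen-metabolising genes 8 of 13 were higher with NANOG (median 0.19), and 10 of 13 were lower with HDAC1 siRNA than with GFP siRNA (median -0.19; 8 of 13 and -0.04 under TPM, which shifts all genes upward here). EPHX1, the microsomal epoxide hydrolase that acts on CYP1 products, was at 33.0 FPKM with HDAC1 siRNA, 43.8 FPKM with NANOG and GFP siRNA and 19.7 FPKM with empty vector, a difference of 1.11 for NANOG against empty vector. EPHX2, the soluble epoxide hydrolase, differed by 0.67 in the same comparison. For HDAC1 siRNA against GFP siRNA, CYP4F11 differed by -0.60 and CYP51A1, an enzyme of sterol synthesis, by -0.45. CYP4F11 was weak, at 0.702 FPKM with HDAC1 siRNA, 1.57 FPKM with NANOG and GFP siRNA and 0.961 FPKM with empty vector. Its difference between the NANOG libraries was -1.06, past 2-fold, when 0.1 FPKM instead of 1 FPKM was added before the log. The electron donor POR, named after its values were seen, was at 17.5 FPKM with HDAC1 siRNA, 20.2 FPKM with NANOG and GFP siRNA and 18.9 FPKM with empty vector. It differed between NANOG and empty vector by less than 1.5-fold. Among the relatives of TIPARP 7 of 8 were lower with NANOG (median -0.14; 6 of 8 under the median and upper quartile scalings). The exception was ZC3HAV1, the zinc finger antiviral protein, with a difference of 0.70, while PARP12 differed by -0.45 and PARP8 by -0.23. For HDAC1 siRNA against GFP siRNA, PARP16 differed by 0.20 and the list's median was 0.05.

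**Figure D3:**
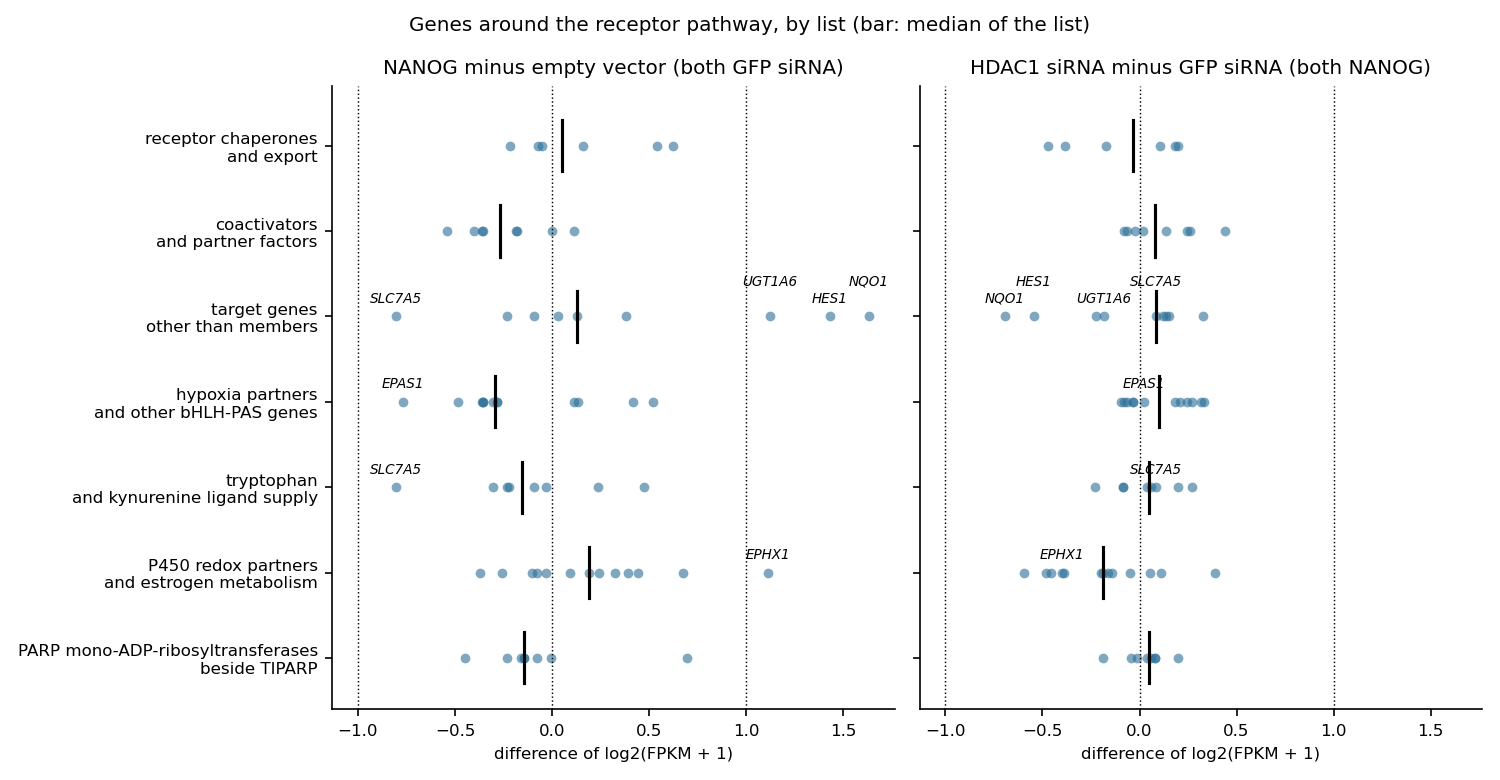
Difference of log2(FPKM + 1) for each measured gene of the 7 pathway lists (points; SLC7A5 and the NCOA genes stand in more than 1 list), with the list's median as a bar and dotted lines at 0 and at 2-fold. NQO1 (1.63), HES1 (1.43), UGT1A6 (1.12) and EPHX1 (1.11) lie past 2-fold with NANOG, and no gene does for HDAC1 siRNA.

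The genes whose profile over the 3 libraries lay closest to that of CYP1B1, by Euclidean distance between log2(FPKM + 1) values centred on each gene's mean, were AKR1C1 (distance 0.17), SPP1 (0.21), GPNMB (0.23), DNER (0.24) and AKR1C3 (0.27). AKR1C1, an aldo-keto reductase, was at 18.7 FPKM with HDAC1 siRNA, 32.1 FPKM with NANOG and GFP siRNA and 5.10 FPKM with empty vector. AKR1C1 and AKR1C3 are closely similar in sequence, so the split of fragments between them is uncertain. SPP1, which encodes osteopontin, was at 7.94 FPKM with HDAC1 siRNA, 13.6 FPKM with NANOG and GFP siRNA and 1.60 FPKM with empty vector. The genes closest to ARNT2 were C12orf36 (0.02), the myoglobin gene MB (0.04), the BMP antagonist gene NOG (0.06), the tissue plasminogen activator gene PLAT (0.14) and C4BPB (0.19). NOG was at 2.94 FPKM with HDAC1 siRNA, 2.80 FPKM with NANOG and GFP siRNA and 15.3 FPKM with empty vector, close to ARNT2 in level as well. MB was at 0.147 FPKM with HDAC1 siRNA, 0.134 FPKM with NANOG and GFP siRNA and 4.09 FPKM with empty vector. It passed the limit on the mean through the control alone, and its likeness to ARNT2 rests on the pseudocount, since its FPKM values differ by a far larger ratio. With 3 libraries a profile has only 2 independent differences, so many genes can lie close by.

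**Figure D4:**
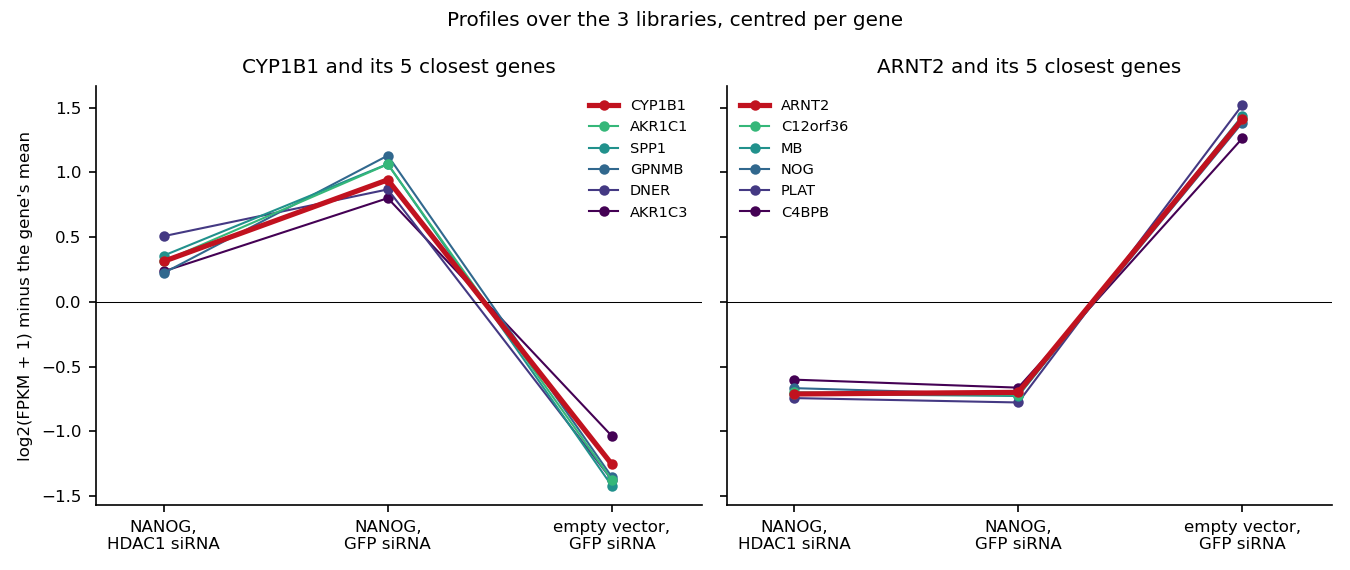
Centred log2(FPKM + 1) profiles of CYP1B1 and of ARNT2 (thick lines) and of the 5 genes closest to each, over the 3 libraries; lines only join the points of a gene. The CYP1B1 group peaks with NANOG and GFP siRNA, and the ARNT2 group is level in both NANOG libraries and high with empty vector.

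The libraries followed their labels for NANOG, at 325 FPKM with HDAC1 siRNA, 298 FPKM with GFP siRNA and 0.0357 FPKM with empty vector. HDAC1 was at 12.8 FPKM with HDAC1 siRNA, 108 FPKM with NANOG and GFP siRNA and 19.02 FPKM with empty vector, so its low level with HDAC1 siRNA is set against a high value in the NANOG GFP siRNA library, where CYP1B1 and NQO1 were also highest; its part in their values was not tested. All 9 epithelial markers were detected, 8 of them at 1 FPKM or more in every library, with summed levels of 4060 FPKM with HDAC1 siRNA, 5073 FPKM with NANOG and GFP siRNA and 4408 FPKM with empty vector. The 5 fibroblast and 3 endothelial markers were under 1 FPKM in every library, as were 3 of 4 blood cell markers. The fibroblast sum was 0.0617 FPKM with HDAC1 siRNA, 0.993 FPKM with NANOG and GFP siRNA and 0.0826 FPKM with empty vector. Nearly all of the high value was COL1A2, a collagen gene, at 0.948 FPKM with NANOG and GFP siRNA, while COL3A1 was listed at 0 there. DCN (0.0160 FPKM) and LUM (0.0174 FPKM) were above 0 only in that library. PDGFRB was lowest there, at 0.0123 FPKM against 0.0552 FPKM with HDAC1 siRNA and 0.0563 FPKM with empty vector. The fibroblast sum, nearly all COL1A2, was thus highest in the library where CYP1B1 was highest. The part of this sum in the CYP1B1 value was not tested. Among the blood cell markers, CD68, which is not limited to blood cells, was at 50.7 to 61.2 FPKM. FPKM sums were 600749 with HDAC1 siRNA, 681947 with NANOG and GFP siRNA and 660990 with empty vector. The number of fragments behind a value is unknown. Relative depth, read from the steps of 2156 low genes, differed by no more than 1.018-fold from that of the NANOG GFP siRNA library. Only a narrow range around equal depth was searched, so a larger difference could not have been found.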

How the data were processed

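Total RNA (2 ug per library, taken up in Trizol) was made into TruSeq stranded total RNA libraries, per the labels' protocols. Reads were processed with TopHat2 and Cufflinks on hg19, as the submitters' processing notes list them without versions; annotation and strand handling are not stated. Each deposited file holds FPKM values of 1 library by gene symbol, already divided by the authors by transcript length and library size, so that a few abundant RNAs lower all other values of a library. Groups came from the sample titles.

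The difference of log2(FPKM + 1) between libraries (pseudocount 1 FPKM) was computed for genes averaging at least 1 FPKM over the 3 libraries. Symbols of small RNAs (1641) were left out of the comparisons but kept when the libraries were rescaled. A difference of at least 1 counted as 2-fold. No test was run on 1 library per group. The steps were tried on simulated data, with 4-fold changes in genes at 5 FPKM or more in the control. The 2-fold calls of weaker genes, CYP1B1 among them, were not covered by it. The members, lists and tests were chosen with earlier results of these data known. Named genes were the members, NANOG, HDAC1, list genes past 2-fold or otherwise up to 4 per list with the largest difference, and the 5 genes closest in profile to CYP1B1 and to ARNT2; other names are cell type markers or were chosen after their values were seen. Some genes of the lists are counted but not reported by name here. Alternatives were pseudocounts of 0.1 and 0.5 FPKM, no filter, a filter at 5 FPKM, rescaling to TPM, to the same upper quartile or to a median log2 ratio of 0, and thresholds of 1.5-fold and 3-fold. Promoters came from RefSeq (GRCh38.p14). Python 3.11.15, numpy 2.4.6, pandas 2.3.3 and matplotlib 3.10.9 were used.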

Additional observations from a re-analysis of the deposited data

How the results depend on the processing

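Counts of members past 2-fold were recomputed under 9 alternatives in 3 comparisons and both directions, and 52 of 54 kept the same count. At a 3-fold threshold 0 members were higher with NANOG and HDAC1 siRNA than with empty vector, against 1 at 2-fold (CYP1B1, difference 1.57). The pseudocount of 1 FPKM sets this count: the FPKM ratio of CYP1B1 was 3.60, and its difference was 1.82 at a pseudocount of 0.1 FPKM, past 3-fold. At a 1.5-fold threshold 1 member was lower with HDAC1 siRNA than with GFP siRNA in NANOG cells (CYP1B1), against 0 at 2-fold; under TPM its difference of -0.47 fell short of 1.5-fold. Over the alternative pseudocounts and scalings CYP1B1 ranged over 2.21 to 2.49 for NANOG against empty vector, beside 2.20 in the main setting. For HDAC1 siRNA against GFP siRNA CYP1B1 ranged over -0.67 to -0.47. ARNT2 ranged over -2.42 to -2.06 for NANOG against empty vector. Of 90 recomputed member differences 4 changed sign, all between the NANOG libraries and all small: AHRR was at 0.10 and ARNT2 at 0.14 under TPM, and ARNT and TIPARP were each at -0.02 under the upper quartile. No paired analysis was possible because each group has 1 library and the labels give no replicate numbers. Without replicates or fragment counts, no difference can be set against its error, and CYP1A1 lies too low to be compared.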
